A study of Mus musculus with 6 samples.

Results

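Cytosolic ribosomal protein genes encode the proteins of the ribosome that translates nuclear mRNAs. They were taken as protein-coding rows with values whose symbol is Rpl, Rplp or Rps followed by a number and at most 1 of the letters a, x or l. Of 81 rows that matched, 1 had no value (Rpl10l) and 2 were pseudogenes (Rpl32l and Rps4l), which left 78 genes of the 18185 rows with values. Of these, 48 belong to the large 60S subunit (Rpl and Rplp) and 30 to the small 40S subunit (Rps). The naming leaves out Rpsa, Rps3a1, Fau and some paralogs, which are described separately.

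Tumour cells were sorted from orthotopic pancreatic ductal adenocarcinoma (PDAC) of C57BL/6 mice, and their RNA was sequenced in bulk, in 3 libraries titled KPC and 3 titled KPSC. All tumours grew in the pancreas and were taken at 10 to 14 days. The KPC libraries carry the genotype label Setd2 knockout and the KPSC libraries the label wild type, although a letter added to a mouse model's name usually marks an added allele. Groups are therefore named by title and no direction is tied to the loss of Setd2, a histone H3 lysine methyltransferase. The labels give no number of tumours, cell clones or animals, no sorting marker, and no further allele or agent. Without a record of how the 3 libraries of a group arose, every p-value here measures only the spread between these libraries, which may be technical.

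Setd2 itself stood at 1046 to 1338 normalised counts in the libraries titled KPC and at 859 to 1042 in those titled KPSC (log2 fold change -0.31, limma adjusted p = 0.148). Library totals ran from 14662710 to 17746969 reads. The 8 epithelial tumour markers, such as Epcam and Krt8, summed to 0.391 to 0.485% of the normalised total in KPC. In KPSC they summed to 0.625 to 0.783%. Markers are called here at a limma adjusted p below 0.05. All 8 had fold changes above 0, and 6 of the 8 were called higher in KPSC, against 7.61% of all genes. Markers of other cell types were also detected. The 8 pan-leukocyte markers summed to 0.112 to 0.126% in KPC and 0.0588 to 0.1% in KPSC (3 of 8 called lower). The 12 lymphocyte markers summed to 0.0108 to 0.0146% and 0.00336 to 0.00853% (6 of 12 called lower). All fold changes in both lists lay below 0, and 6.76% of all genes were called lower. The 8 fibroblast markers made up 0.883 to 1.08% and 0.546 to 1.49% (1 of 8 called lower, 6 of 8 fold changes below 0). The 8 endothelial markers made up 0.0142 to 0.022% and 0.0112 to 0.0245% (0 of 8 called). The 17 acinar genes ranged from 0.971 to 7.51% in KPC and from 0.405 to 18.8% in KPSC, and the 10 islet genes from 0.056 to 0.0671% and from 0.00131 to 0.102%, with 0 genes called in either list. No marker was at 0 throughout a group.

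As background, the small subunit of the ribosome decodes the mRNA and the large subunit joins amino acids and holds the exit tunnel for the growing chain. Most ribosomal proteins come from 1 expressed gene that has left many processed pseudogenes in the genome, and their amounts are kept nearly equal in the cell. Their mRNAs start with a C followed by a run of pyrimidines, the terminal oligopyrimidine (TOP) motif, through which Larp1 and mTORC1 set their translation, while Myc is known to raise their transcription.

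Pyrimidine runs near the annotated start were more frequent among these genes than among all promoters. Of the 78 genes, 58 had a promoter in the RefSeq table used (GRCm38.p6). Within 50 bases of the start, a run of 10 or more C or T on the gene's strand lay in 42 of 58 (72.4%), against 20.6% of all 27025 promoters. The word CTTCCGG, searched on both strands over 300 bases, lay in 24 of 58 (41.4%), against 9.93% of all promoters. These matches describe the letters only. A run anywhere within 50 bases of the start was counted, so it need not be the TOP motif. The 6 windows printed here reach 50 bases to either side of the start, are written 5′ to 3′ on the gene's strand, and carry the longest C or T run in capitals. Rpl31, Rpl35, Rpl37a and Rpl12 are shown because they had some of the highest KPSC to KPC ratios among the 78, Rplp0 for its high level, and Rps6 because its protein is the classical S6 kinase substrate.
Rpl31, chr1:39367801-39367900, plus strand: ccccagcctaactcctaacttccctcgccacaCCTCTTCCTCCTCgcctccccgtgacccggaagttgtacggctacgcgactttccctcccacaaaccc
Rpl35, chr2:39005082-39005181, minus strand: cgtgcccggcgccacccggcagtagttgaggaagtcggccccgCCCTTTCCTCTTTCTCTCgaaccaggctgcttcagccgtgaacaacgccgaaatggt
Rpl37a, chr1:72711210-72711309, plus strand: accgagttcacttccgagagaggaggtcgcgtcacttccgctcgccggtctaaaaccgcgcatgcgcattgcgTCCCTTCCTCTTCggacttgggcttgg
Rpl12, chr2:32961662-32961761, plus strand: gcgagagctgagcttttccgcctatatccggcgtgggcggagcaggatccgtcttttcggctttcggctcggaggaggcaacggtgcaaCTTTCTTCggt
Rplp0, chr5:115559417-115559516, plus strand: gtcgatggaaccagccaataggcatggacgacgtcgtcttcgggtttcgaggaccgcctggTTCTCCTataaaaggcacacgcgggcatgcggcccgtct
Rps6, chr4:86857318-86857417, minus strand: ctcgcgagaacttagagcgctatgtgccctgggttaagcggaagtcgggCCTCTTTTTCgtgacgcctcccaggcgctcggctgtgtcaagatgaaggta
The longest run covered 18 bases in Rpl35, 13 in Rpl31 and in Rpl37a, 10 in Rps6, 8 in Rpl12 and 7 in Rplp0. The genes shown for their high ratios had runs of 8 to 18 bases. Run length was not compared with the ratio over the 58 genes.

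No cytosolic ribosomal protein gene differed between KPSC and KPC at an adjusted p below 0.05. In the same limma fit on log2(value + 1), with Benjamini-Hochberg adjustment over 16737 genes, 2406 genes (14.4%) were called, 7.61% of all genes as higher in KPSC and 6.76% as lower. The median log2 fold change of the 78 was 0.10, against 0.01 over all genes tested, and single genes ran from -0.25 for Rps28 to 0.65 for Rpl37a. Of the 78 fold changes 52 lay above 0 and 26 below. That tally moved with the libraries and the scaling: 29 lay above 0 without KPC replicate 1, 31 without KPSC replicate 1, 74 without KPSC replicate 3, and 27 with library totals as the scaling. An unadjusted p below 0.05 was reached by 2 of them, Rpl7 and Rpl12, and by 4859 genes (29%) overall. In the authors' deposited table the same 2 genes had an adjusted p below 0.05, with 0.00175 for Rpl7 and 0.00845 for Rpl12, where 16.2% of all genes did.

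These fold changes carried wide intervals. The 95% interval of a member's log2 fold change had a median half-width of 0.58, from 0.37 to 2.71, and the whole interval lay within 1 log2 unit of 0 for 62 of 78. The median log2 fold change was 0.10 for the 60S genes and 0.13 for the 40S genes, so that the subunits gave near-equal medians. The KPC and KPSC values failed to overlap for 2 of 78 genes, both higher in KPSC, against 34.8% of all genes (17.6% higher). In bulk RNA, fewer cells of a type and less RNA per cell cannot be told apart.

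These genes differed more between libraries than between groups. The median deviation of the 78 from each gene's mean log2 level was -0.42, 0.08 and 0.15 in KPC replicates 1 to 3 and 0.40, 0.18 and -0.35 in KPSC replicates 1 to 3. KPC replicate 1 and KPSC replicate 3 were thus the low libraries and KPSC replicate 1 the high one, with 1.74-fold between the highest and lowest library in geometric mean level. The gap was shared by nearly every gene: KPC replicate 1 was the lowest of its group for 75 of 78 and KPSC replicate 3 for 76 of 78. Among 6597 other genes averaging at least 500 counts, the same libraries were the lowest of their group for 38.1% and 38.8%. KPSC replicate 1 was the highest of its group for 72 of 78. Both subunits moved alike, with a 60S median deviation of -0.41 and a 40S median of -0.44 in KPC replicate 1, and -0.36 and -0.34 in KPSC replicate 3.

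**Figure D1:**
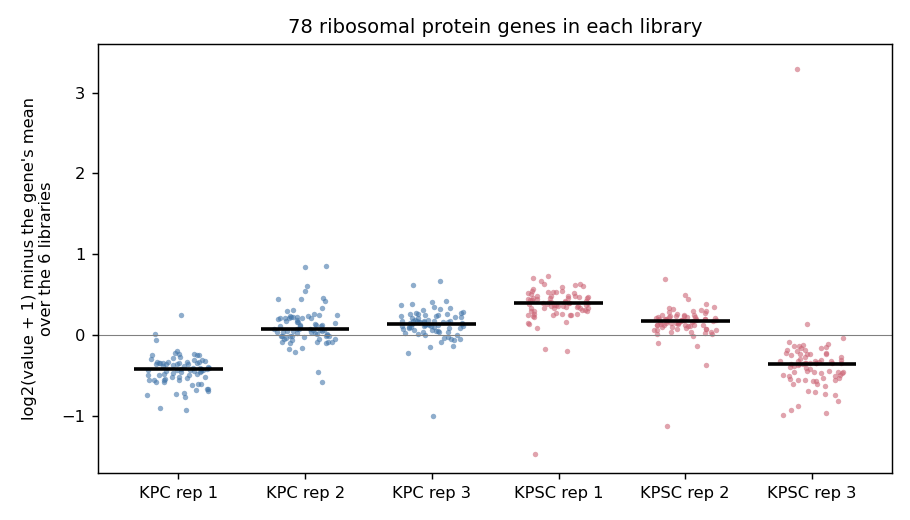
Each point is 1 of the 78 ribosomal protein genes in 1 library, plotted as log2(value + 1) minus the gene's mean over the 6 libraries, and black bars are medians. KPC replicate 1 (median -0.42) and KPSC replicate 3 (-0.35) have lower medians than the other 4 libraries, and the far point above KPSC replicate 3 is Rpl3l.

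As a share of all normalised counts, the 78 genes made up 4.41, 6.20 and 5.90% in KPC replicates 1 to 3 and 5.53, 5.58 and 4.47% in KPSC replicates 1 to 3. The group means, 5.50% ± 0.962 in KPC and 5.20% ± 0.629 in KPSC (SD, n = 3), differed by less than the spread within a group. Acinar transcripts took 2.56, 0.971 and 7.51% of the KPC libraries and 18.8, 9.77 and 0.405% of the KPSC libraries. With acinar and islet genes taken out of the total, the ribosomal share became 4.52, 6.27 and 6.39% in KPC and 6.82, 6.19 and 4.49% in KPSC. The group means were then 5.73% ± 1.04 and 5.83% ± 1.21 (SD, n = 3), and the sign of their difference had turned. The 2 low libraries stayed low on both scales, and no direction between KPSC and KPC is given for the share.

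Short genes outside the ribosome moved along the same libraries. Over 48 other protein-coding genes with a deposited length under 800 bases and an average of at least 500 counts, the median deviation was -0.38, 0.15 and 0.18 in KPC replicates 1 to 3 and 0.27, 0.14 and -0.37 in KPSC replicates 1 to 3. For the 2385 such genes of 6000 bases or more, KPC replicate 1 stood at 0.10 and KPSC replicate 3 at 0.09, above the other 4 libraries. The ribosomal genes were low in those libraries in each class of deposited length with more than 2 members. For example, 37 members of at least 1500 and under 3000 bases had -0.42 in KPC replicate 1 and -0.34 in KPSC replicate 3. The 1228 other genes of that deposited length had -0.17 and -0.06. Deposited length can exceed transcript length: Rps18 has 2491 deposited bases and a longest coding transcript of 560. The classes thus do not match the sets on transcript length, whose part in the library differences was not tested.

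**Figure D2:**
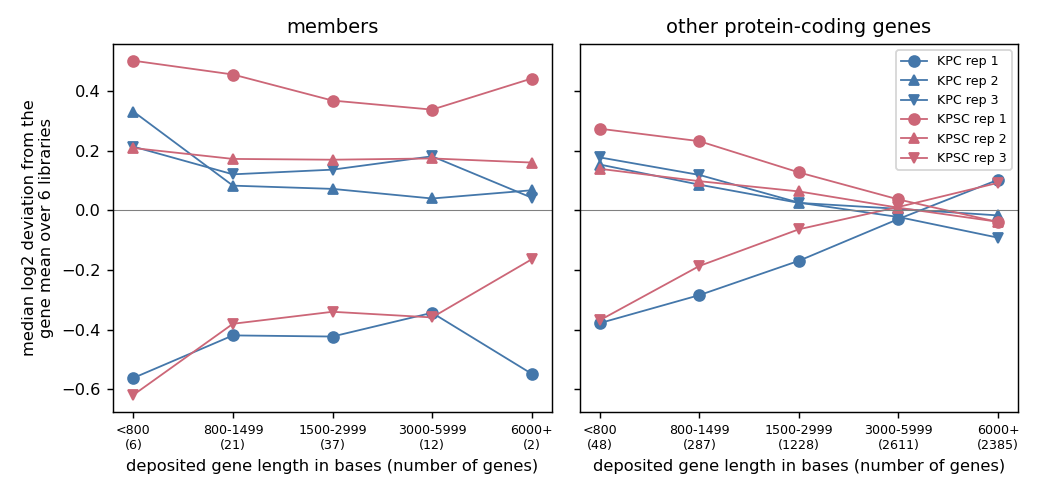
Median log2 deviation from the gene's mean over 6 libraries (y axis) by deposited gene length in bases (x axis, number of genes in brackets), for the ribosomal genes on the left and for other protein-coding genes averaging at least 500 counts on the right; each line is a library. Other genes under 800 bases fell to -0.38 and -0.37 in KPC replicate 1 and KPSC replicate 3, the same libraries in which the ribosomal genes are low.

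Related gene groups showed the library pattern less or not at all. The 77 mitochondrial ribosomal protein genes had median deviations of -0.26 in KPC replicate 1 and -0.06 in KPSC replicate 3, and 0.24 in KPSC replicate 1. The 17 other TOP mRNAs, such as Eef1a1 and Tpt1, had -0.19, -0.09 and 0.23 in those libraries. For 41 ribosome assembly factors the values were -0.09, 0.16 and 0.09, so KPSC replicate 3 was their highest library. These groups differ from the ribosomal genes in length and level, and the difference between groups was not tested.

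The ribosomal stalk recruits the elongation factors. Rplp0, the stalk base and the gene of highest mean value among the 78, had 30451, 40748 and 39318 normalised counts in KPC replicates 1 to 3 and 42904, 35745 and 28305 in KPSC replicates 1 to 3. The groups overlapped and the log2 fold change was -0.06 (SE 0.26, limma adjusted p = 0.92). Rplp1, which pairs with Rplp2 at the tip of the stalk, had 14405, 24453 and 23962 in KPC and 30679, 23192 and 14870 in KPSC, with a log2 fold change of 0.11. Rplp2 stood at 0.05. Rpl12, which anchors the stalk beside Rplp0, was the gene of this list farthest from 0: it had 8924, 12531 and 12890 counts in KPC and 21934, 18029 and 13775 in KPSC. Its KPSC values all lay above its KPC values, by a narrow margin in KPSC replicate 3, with a log2 fold change of 0.64 (SE 0.23, limma adjusted p = 0.107, 95% interval 0.11 to 1.17). Of the 4 stalk genes 0 were called, and their median log2 fold change was 0.08.

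Rpl5 and Rpl11 form a particle with 5S rRNA that can bind Mdm2, the ubiquitin ligase of p53. Rpl5 had 12104, 16235 and 16893 counts in KPC and 18456, 15288 and 11324 in KPSC. Both genes had overlapping groups and log2 fold changes close to 0, -0.02 for Rpl5 and 0.01 for Rpl11. Among 11 p53 target genes 1 was called, Phlda3, an inhibitor of Akt signalling, at a log2 fold change of 0.95 (adjusted p = 0.00329). Over all genes 14.4% were called, and the median of the list was -0.14. Phlda3 lies on chromosome 1, and Mdm2, itself a p53 target, stood at -0.25 (adjusted p = 0.13).

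At the exit tunnel of the 60S subunit and its rim, where nascent chains meet their processing and targeting factors, 0 of 9 genes were called and the median log2 fold change was 0.18. Rpl35, at the rim, had 4736, 6094 and 7091 counts in KPC and 10764, 8700 and 6357 in KPSC, a log2 fold change of 0.51 (SE 0.22, limma adjusted p = 0.175). Rpl31, also at the rim, had 5842, 8779 and 9124 in KPC and 14797, 11523 and 7943 in KPSC, a log2 fold change of 0.51 (adjusted p = 0.248). In both genes KPSC replicates 1 and 2 lay above all KPC libraries, and KPSC replicate 3 fell among them. Rpl22, an RNA-binding protein of the 60S subunit that is dispensable for general translation, was the lowest of the list at -0.17.

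The other 60S genes with high ratios were Rpl7, Rpl37a and Rpl7a. Rpl7 had 11302, 15462 and 15514 counts in KPC and 23284, 21512 and 18974 in KPSC, with no overlap. Its log2 fold change of 0.60 (SE 0.19, 95% interval 0.16 to 1.05) had the smallest limma adjusted p of the 78, 0.0766. Rpl37a, a small zinc-binding protein, had 5460, 10327 and 9977 in KPC and 16893, 14687 and 8851 in KPSC, with a log2 fold change of 0.65 (SE 0.32, adjusted p = 0.22). Rpl7a had 2021, 3818 and 2835 in KPC and 4450, 5365 and 2483 in KPSC, at 0.48 (adjusted p = 0.375). In the last 2 genes KPSC replicate 3 overlapped the KPC libraries.

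The calls among these genes turned on the test and on KPSC replicate 3. DESeq2 on the recovered reads called 2 of the 78, Rpl7 (adjusted p = 0.00132) and Rpl12 (0.00804), and 20.1% of all genes. Rpl7 alone was called with limma-voom (adjusted p = 0.0404, 13.4% of all genes), with a robust variance trend (0.0392, 15.1%) and with acinar level as a covariate (0.0459, 21.4%). The quasi-likelihood test of edgeR called 0 of 78 and 13.7% of all genes. Without KPSC replicate 3 the limma fit called 5 genes, all higher in KPSC, where 18.5% of all genes were called and 9.05% called higher: Rpl12 (log2 fold change 0.82, adjusted p = 0.0296), Rpl35 (0.72, 0.0312), Rpl7a (0.80, 0.0415), Rpl37a (0.93, 0.0422) and Rpl31 (0.75, 0.0448).

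In the head of the 40S subunit, 0 of 14 genes were called, with a median log2 fold change of 0.05. Rps28, which lies near the mRNA exit, had the lowest fold change of all 78. It stood at 5994, 9927 and 10530 counts in KPC and at 10078, 8887 and 4153 in KPSC, a log2 fold change of -0.25 (SE 0.36, limma adjusted p = 0.704). Rps27a, made as a fusion with ubiquitin, had 6723, 13371 and 12909 in KPC and 14160, 7519 and 6710 in KPSC (-0.23, adjusted p = 0.723). In both genes the lowest KPSC library was KPSC replicate 3 and the groups overlapped.

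Elsewhere in the 40S subunit, Rps14, whose human counterpart is lost in the 5q- syndrome, had 15768, 24884 and 25202 counts in KPC and 24038, 20168 and 13199 in KPSC. Its log2 fold change was -0.21 (limma adjusted p = 0.696). Rps2, among the 3 genes of highest mean value with Rplp0 and Rplp1, had 17256, 21783 and 23830 in KPC and 30586, 26621 and 21059 in KPSC, at 0.31 (adjusted p = 0.422). Rps26, at the mRNA exit channel, had 8256, 11937 and 11652 in KPC and 16781, 13974 and 11080 in KPSC, the highest log2 fold change of the 40S genes at 0.39 (adjusted p = 0.277). KPSC replicates 1 and 2 lay above all KPC libraries for Rps2 and Rps26 and below the 2 highest KPC libraries for Rps14. The 15 ribosomal genes mutated in human Diamond-Blackfan anaemia, Rps26, Rps28 and Rpl5 among them, had a median of -0.02, with 0 called.

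The genes were then set against the mean log2 level of the 78 in each library, which takes out what they share. On this relative scale the within-group SD had a median of 0.10 over genes averaging at least 500 counts, and 51 were under 0.15. Rpl26 was among those closest to the common level, with an SD of 0.03. Rpl17 at 0.80 and Rps27 at 0.48 held least: Rpl17 had 6305, 9577 and 2658 counts in KPC and 7862, 5980 and 2889 in KPSC. KPC and KPSC separated without overlap for 15 genes that were relatively higher in KPSC and for 9 that were lower. On the same scale 5.71% and 9.98% of all genes did so. The scale removes the swing shared by the 78 and lays it on genes that lack it. The shares of all genes are therefore not a like reference, and no excess among the 78 is read from them. With the libraries scaled to the 78 genes, 0 of 78 passed at an adjusted p below 0.05 (2.91% of all genes did), and the smallest adjusted p was 0.425.

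On chromosomes 1, 3, 5 and 18, whose other genes had medians farthest from 0, the medians of the ribosomal genes had the same sign. For Rpl7, Rpl31 and Rpl37a on chromosome 1 the median log2 fold change was 0.60, where 720 other expressed genes of that chromosome had a median of 0.39. On chromosome 5, 5 genes including Rplp0 and Rpl5 had a median of -0.06 and 779 other genes -0.24. On chromosome 18, Rpl17 and Rps14 had a median of -0.14 and 305 other genes -0.37, and on chromosome 3, Rpl34 and Rps27 had -0.12 and 614 other genes -0.24. The chromosomes with the most ribosomal genes were near 0: 14 on chromosome 7 had 0.03 and other genes 0.02, and 7 on chromosome 11 had 0.02 and others 0.00. On chromosome 17, 7 genes had 0.23 and other genes 0.02. The medians of the remaining chromosomes with at least 3 members ran from 0.06 to 0.19, with 0.01 to 0.13 for their other genes, except chromosome 2. Over the 12 chromosomes with at least 3 members, Pearson's r between the medians was 0.76 and Spearman's rho 0.60. This is a description over chromosomes that share the same 6 libraries. Low-count genes enter the medians of chromosome 16 (Rpl24 and Rpl39l) and chromosome 17 (Rpl3l). Among the 12, chromosomes 1 and 5 had the other-gene medians farthest from 0, and the coefficients without them were not computed.

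**Figure D3:**
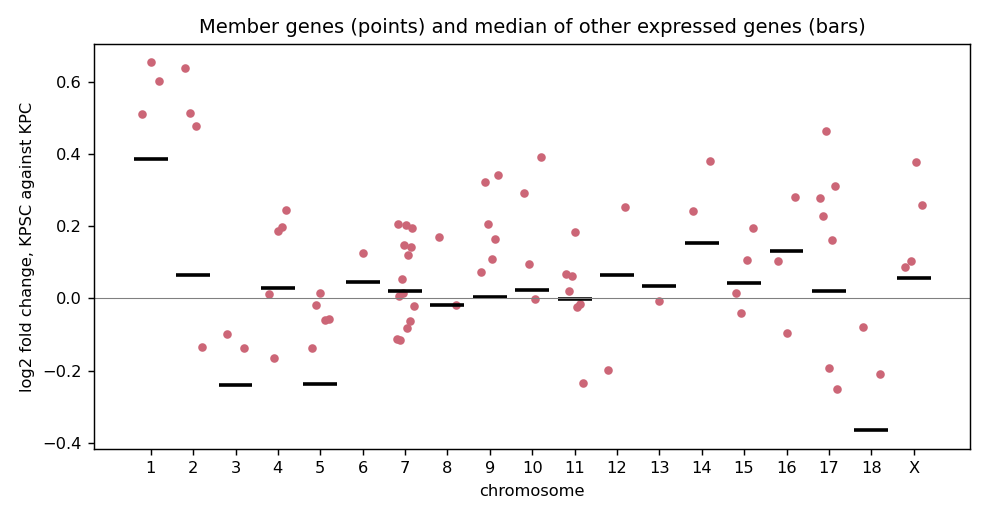
Log2 fold change of each ribosomal protein gene (points, KPSC against KPC) by chromosome, with the median of other expressed genes of that chromosome as a black bar. The 3 points on chromosome 1 lie between 0.51 and 0.65 above a bar at 0.39, and chromosome 2 holds 3 high points and 1 low one.

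Chromosome 2 held both directions. Rpl7a (chr2:26910764-26913318, mm10), Rpl12 (chr2:32961559-32965345) and Rpl35 (chr2:39001580-39005624) lie in its first part and had log2 fold changes of 0.48, 0.64 and 0.51. Rps21, a 40S protein gene near the far end (chr2:180257377-180258445), had 5126, 12559 and 11209 counts in KPC and 11744, 9534 and 4878 in KPSC, a log2 fold change of -0.13 (adjusted p = 0.872). Other expressed genes within 5 Mb had a median log2 difference of 0.32 around Rpl7a, 0.36 around Rpl12 and 0.40 around Rpl35, and of -0.27 around Rps21. The median over the whole chromosome was 0.07, near neither value. The window around Rpl12 overlaps those of Rpl7a and of Rpl35, so these values share neighbours.

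**Figure D4:**
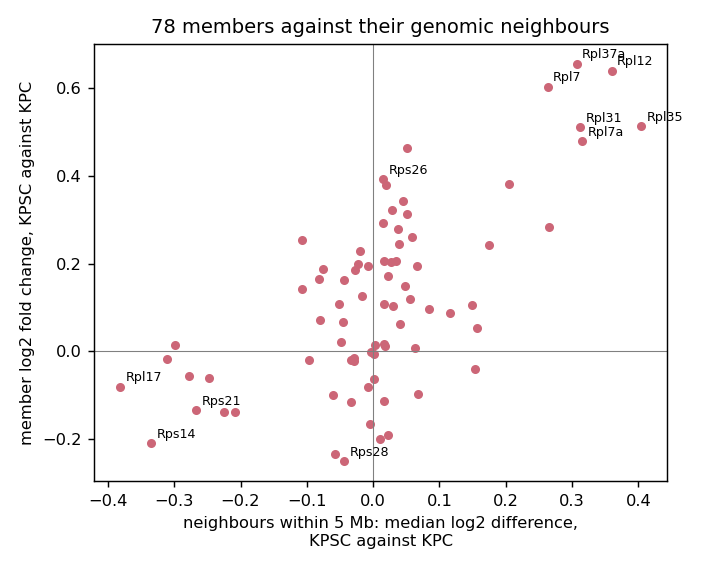
Log2 fold change of each ribosomal protein gene (y axis, KPSC against KPC) against the median log2 difference of other expressed genes within 5 Mb (x axis). Genes with neighbours above 0.2 lie between 0.28 and 0.65, and those with neighbours below -0.2 between -0.21 and 0.01.

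Over all 78 genes, the fold change and the median difference of the neighbours had a Pearson's r of 0.66 and a Spearman's rho of 0.57, and over the 74 that averaged at least 500 counts, 0.68 and 0.58. These are descriptions across genes, which share libraries and, in part, neighbours. Where the neighbours stood above 0.2, all 8 genes (Rpl7, Rpl31, Rpl37a, Rpl7a, Rpl12, Rpl35, Rps24 and Rpl39l) had fold changes above 0, with a median of 0.51. Where they stood below -0.2, 8 of 9 genes (Rpl17, Rps14, Rpl5, Rplp0, Rps21, Rpl9, Rps27 and Rpl21, but not Rpl6 at 0.01) were below 0, with a median of -0.08, and all 9 were below the common level of the 78. The other 61 genes had a median of 0.10 and lay on both sides of the common level, 28 above and 33 below.

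Relative to the common level, Rpl12 stood at 0.72, 0.66 and 0.68 log2 units in KPC replicates 1 to 3 and at 1.22, 1.15 and 1.27 in KPSC replicates 1 to 3. Rps14 stood at 1.54, 1.65 and 1.65 in KPC and at 1.35, 1.31 and 1.20 in KPSC. The groups did not overlap for either gene, and they differed in opposite directions. Rpl35 was higher in KPSC by 0.40 on this scale, Rpl37a by 0.54 and Rpl7 by 0.49.

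**Figure D5:**
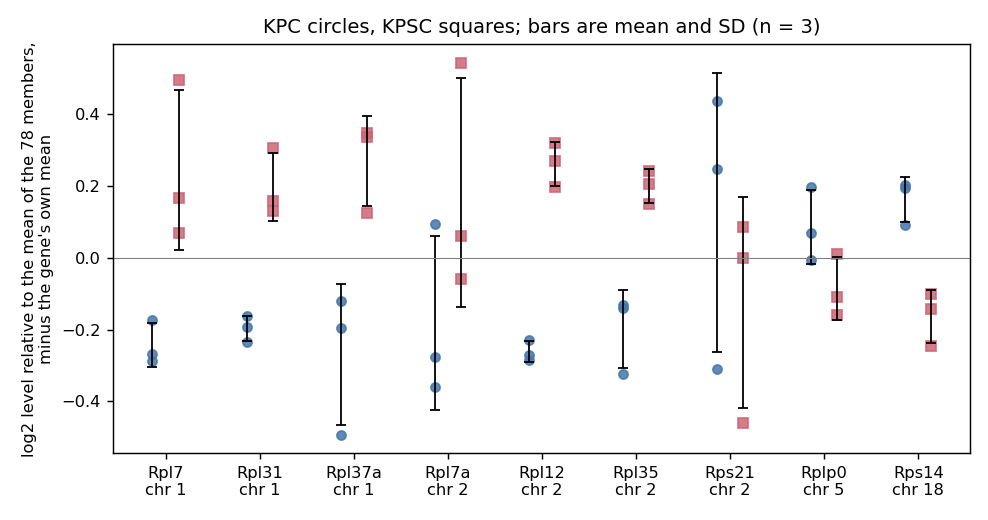
Log2 level relative to the mean of the 78 genes, minus each gene's own mean, for 9 genes named in the text: KPC as blue circles and KPSC as red squares, with mean and SD (n = 3). Rpl7, Rpl31, Rpl37a, Rpl12 and Rpl35 are higher in KPSC without overlap, Rpl7a and Rps21 overlap, and Rps14 is lower without overlap.

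Tested against the other genes of their chromosome, none of the 78 differed either. With each library's log2 values centred on the other expressed genes of the chromosome, 0 of 78 passed where 10.8% of all genes did, and Rpl12 had the smallest limma adjusted p, 0.178, at a centred log2 difference of 0.56. It was also the single gene with an unadjusted p below 0.05. With genes within 5 Mb as the reference, 0 of 78 passed (9.99% of all genes did), 0 had an unadjusted p below 0.05, and the smallest adjusted p was 0.303. The difference left for Rpl7 was then 0.34 (adjusted p = 0.325), and that for Rpl12 0.28 (adjusted p = 0.51). Without KPSC replicate 3 the chromosome-centred fit called 2 genes, Rpl12 (0.75, adjusted p = 0.0438) and Rpl35 (0.65, adjusted p = 0.0493), where 14.5% of all genes passed.

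Per kilobase of deposited gene length, the median value of the 78 was 5586. Rplp1 (43942), Rpl36 (23859) and Rplp0 (21848) were highest per kilobase, and Rpl39l (3.995), Rpl3l (12.1), Rpl24 (24.7), Rps10 (73.2) and Rpl13a (398) lowest. Rpl24, a protein of a bridge between the subunits, had 25.5, 23.6 and 23.7 counts in KPC and 33.8, 23.5 and 22.5 in KPSC. Rps10, a 40S head protein ubiquitinated at collided ribosomes, had 162, 182 and 197 in KPC and 147, 178 and 149 in KPSC (log2 fold change -0.19, limma adjusted p = 0.493). Both are general ribosomal proteins, yet their levels lay far below those of their partners. Of the 50-base words in the transcripts of Rpl24, 81.7% also occur in transcripts of other genes, and 51.8% of those of Rps10. Over the 78 genes the median was 40.2%, 27 genes had more than 50%, and 3 had none. Sharing did not go with a low level in every gene: Rps18, at 86.7%, averaged 19271 counts. The reason for the low levels of Rpl24 and Rps10 was not tested. How reads that match several genes were counted is not given in the sources used here, so the levels of genes with near-identical copies are uncertain, as are those of genes that overlap others.

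Among the paralogs, 0 of 8 tested genes were called, with a median log2 fold change of 0.31. All 8 fold changes lay above 0, but Rpl22l1 was below 0 without KPC replicate 1 (-0.10) or KPSC replicate 1 (-0.15), and Rpl3l without KPSC replicate 3 (-1.06). Rpl3l, the form of Rpl3 found in heart and skeletal muscle, had 5.46, 5.89 and 10.8 counts in KPC and 2.42, 3.35 and 91.5 in KPSC. Its log2 fold change of 0.46 (SE 1.17, limma adjusted p = 0.841) rests on KPSC replicate 3. That library also held striated muscle transcripts, chosen for display after the Rpl3l values were seen: Acta1, skeletal actin, stood at 19875 counts there and at most at 5.59 in the other 5. A list of 35 muscle genes made up 0.582% of KPSC replicate 3 and at most 0.0145% of any other library. Without those genes the ribosomal share of KPSC replicate 3 was 4.50%, against 4.47% with them.

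Rps27l, a p53-induced relative of Rps27, had 1231, 1856 and 1987 counts in KPC and 2824, 2193 and 1492 in KPSC, at 0.34 (limma adjusted p = 0.441). Rpl39l, known from male germ cells, had at most 5.39 counts in any library. Rps4x, the X-linked form of Rps4, stood at 0.26 (adjusted p = 0.441). Outside the naming rule, Rps4l, annotated as a pseudogene, had 105, 92.5 and 129 counts in KPC and 179, 151 and 130 in KPSC (0.49, adjusted p = 0.163). Rpl36al stood at 0.43, Rpl7l1, a factor of 60S assembly, at 0.18, and Rpl22l1, which has been studied as the partner of Rpl22, at 0.09. Of the 8 paralogs, 1 had groups that did not overlap, Rps4l, against 34.8% of all genes.

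The ribosomal proteins that the naming rule leaves out followed the same libraries. Rpsa, the 40S laminin receptor protein, had 18092, 26631 and 27071 counts in KPC and 33807, 28297 and 24472 in KPSC (log2 fold change 0.28, limma adjusted p = 0.509). Rack1, a scaffold on the 40S head, had 14935, 20588 and 19904 in KPC and 26393, 23581 and 18992 in KPSC (0.32, adjusted p = 0.388). In both, KPC replicate 1 was the lowest library of all. Rps3a1 stood at -0.07 and Fau, a ubiquitin-like fusion, at -0.15. Of this list 0 of 8 were called, and its median deviation was -0.33 in KPC replicate 1 and -0.19 in KPSC replicate 3.

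Genes that build the ribosome did include called members. Of 41 ribosome assembly factors, 6 were higher in KPSC and 0 lower, where 7.61% of all genes were called higher and 6.76% lower, and their median log2 fold change was 0.15. Wdr12, part of the PeBoW complex of 60S assembly, had 421, 479 and 429 counts in KPC and 781, 756 and 825 in KPSC, a log2 fold change of 0.83 (adjusted p = 0.00194). Nop58, a core protein of box C/D snoRNPs, had 1547, 1435 and 1425 in KPC and 2366, 2579 and 2967 in KPSC, at 0.84 (adjusted p = 0.00275). Rrs1, which brings the 5S particle into the 60S precursor, stood at 0.68 (adjusted p = 0.00687). In contrast to the ribosomal proteins, KPSC replicate 3 was the highest library of Wdr12 and Nop58. These 3 lie on chromosome 1, where 26.9% of all tested genes were called higher, and there all 4 tested assembly factors were called. After chromosome centring Nop58 (limma adjusted p = 0.0229) and Wdr12 (0.0225) still passed, and Rrs1 (0.103) did not. The chromosome median need not match a gene's neighbours, and values against genes within 5 Mb are not given for these 3.

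Of 77 mitochondrial ribosomal protein genes, 6 were higher in KPSC and 1 lower, a share of higher calls (7.79%) near that of all genes (7.61%). Their median log2 fold change was 0.16. Mrps2 on chromosome 2 rose by a log2 fold change of 0.69 (adjusted p = 0.00536), Mrps6 on chromosome 16 by 0.71 (0.0127) and Mrpl15 on chromosome 1 by 0.68 (0.0155). Mrpl9 on chromosome 3 stood at -0.37 (0.0346). After chromosome centring the calls of Mrps2 and Mrps6 remained, and those of Mrpl15 and Mrpl9 did not. With genes within 5 Mb as the reference, Mrps6 was still called (adjusted p = 0.0492) and Mrps2 was not (0.078). Mrpl15 was also not called without KPC replicate 3, KPSC replicate 1 or KPSC replicate 2. Among the fits that left out 1 library, Mrpl9 was called only in the one without KPC replicate 1.

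Among 17 other TOP mRNAs 1 was called, Gas5, a host gene of snoRNAs on chromosome 1, at 0.61 (limma adjusted p = 0.0346), where 14.4% of all genes were called, and the median was 0.17. Leaving out KPSC replicate 3 kept the call; leaving out any other library, or centring on the chromosome, lost it. Of 10 regulators of ribosomal protein synthesis 1 was called, against 14.4% of all genes. Mycn, a Myc family transcription factor on chromosome 12, had 400, 340 and 297 counts in KPC and 735, 714 and 687 in KPSC, a log2 fold change of 1.05 (adjusted p = 0.00226; 0.00279 after chromosome centring). Its relative Myc stood at 0.25 (adjusted p = 0.356), and the list's median was 0.13. KPSC replicates 1 to 3 had similar Mycn counts, and the ribosomal genes were high in KPSC replicate 1 and low in KPSC replicate 3. Any link between Mycn and the ribosomal genes was not tested.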

How the data were processed

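The authors' deposited table holds, per gene and library, a normalised count: a signal that behaves as a whole read count divided by a library size factor (0.828 to 1.19), with 100% of values within 0.01 of a whole read. It also holds p-values of the authors' own comparison. The submitters' processing notes name mm10 and CASAVA 1.7; the aligner, the counter, its annotation and any use of strand were not given in the sources used here. Symbols of 18175 gene IDs were matched to GENCODE, and 5 rows whose symbols had lost letters were left out.

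limma 3.58.1 (R 4.3.3, trend) was fitted to log2(value + 1) for genes reaching a value of 1 in at least 3 libraries, KPSC minus KPC, and fold changes are on that scale, which understates those of low genes. Chromosome centring subtracted, per library, the median deviation of other genes averaging at least 50 counts. A 5 Mb window needed at least 10 neighbours. The code was tested on simulated data. Alternatives changed pseudocount, filter, scaling, variance model, covariates and libraries, or used edgeR 4.0.16, DESeq2 1.42.0 or voom on recovered reads.

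The members and lists were chosen with earlier results of these data known. Genes were named by extreme level or fold change, list membership and smallest p of called genes in a list; Rps21, Rpl7a, Rpl31, Rpl17, Rpl22 and the muscle genes, the 0.2 limit on neighbours, the length classes and the promoter words were chosen after values were seen. Some single genes that the naming rule covers are not reported here.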

Additional observations from a re-analysis of the deposited data

How the results depend on the processing

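The count of ribosomal protein genes called, 0 of 78, became 1 with a robust variance trend, with limma-voom and with acinar level as a covariate, and 2 with DESeq2. On leaving out each library in turn it ran from 0 to 5, and after chromosome centring from 0 to 2; KPSC replicate 3 gave the highest count both times. It stayed 0 with edgeR and under the other pseudocounts, filters and scalings, where 2.91 to 17.5% of all genes were called. It was also 0 without a variance trend (9.22% of all genes) and with leukocyte level as a covariate (1.18%). The median log2 fold change of the 78 ran from -0.07 without KPSC replicate 1 to 0.34 without KPSC replicate 3. With library totals as the only scaling it was -0.09, where the median of all genes was -0.18 and 27 of 78 lay above 0, so no direction is given for the group as a whole. Over the 37 named genes and 368 alternative values, 0 reversed a called direction. Of 10 calls, 4 were lost in some of those settings (Gas5, Mrpl15, Mrpl9 and Mrps6). Those values came from edgeR, DESeq2, limma-voom, a replicate block and leaving out single libraries, and centred fits are not among them. Rrs1 also lost its call after chromosome centring, and Mrps2 with genes within 5 Mb as the reference. Same-numbered libraries did not vary together: their deviations from the group means correlated at -0.12, -0.35 and -0.46. These correlations cannot show whether same-numbered libraries were handled together. A replicate block gave 0 of 78 genes called with a median of 0.10, and 6.06% of all genes called. With 3 libraries per group an exact test of 1 value cannot go below p = 0.1. The cause of these changes was not tested. Low counts limit Rpl39l, Rpl3l and Rpl24.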
